A study of Homo sapiens with 22 samples.

Results

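The 9 genes described here are PCK1, APOA1, APOB, FABP1, ACSL5, CPT1A, PPARG, PPARA and SERPINA1, genes of lipid, glucose and plasma protein metabolism that are best known from liver. They were chosen by symbol, with earlier results of these data known, and each has 1 row in every gene table, which makes 9 of 58870 genes in the siRNA tables and 9 of 57820 in the actinomycin D tables. The study asked how Staufen1, a protein that binds double-stranded stretches of RNA, acts on mRNA encoding FOXA1, a forkhead transcription factor, in colorectal cancer cells. LS180, a mucin-secreting colon adenocarcinoma line, was transfected over 72 h and again over 72 h with a control siRNA (siCTRL, n = 2) or with an siRNA against STAU1 (siSTAU1, n = 2), and polyA RNA was sequenced. In a separate experiment LS180 and HCT116, a poorly differentiated colon carcinoma line, were given 5 µg/ml actinomycin D, which binds DNA and stops transcription, and total RNA was sequenced at 0, 2 and 4 h (n = 3 per line and time). The labels do not say whether the libraries of a group came from separate cultures, so the p-values measure the spread between these libraries, which may be technical.

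PCK1 encodes the cytosolic phosphoenolpyruvate carboxykinase that commits carbon to gluconeogenesis. APOA1 and APOB are the main apolipoproteins of high-density and of chylomicron and low-density lipoproteins, and SERPINA1 is alpha-1-antitrypsin, a protease inhibitor secreted mainly by liver. FABP1 carries fatty acids in the cytosol of hepatocytes and enterocytes, ACSL5 activates them to acyl-CoA, and CPT1A passes them to carnitine for entry into mitochondria, where they are oxidised or, in liver and colon epithelium, made into ketone bodies. PPARA and PPARG are nuclear receptors that bind fatty acids and switch on genes of lipid oxidation and of lipid storage, and PPARG is well expressed in normal colon epithelium. All 9 are protein-coding genes on a GRCh38 annotation matched by identifier: PCK1 at chr20:57561080-57568112 (plus strand), APOA1 at chr11:116835751-116837950 (minus), APOB at chr2:21001429-21044073 (minus), SERPINA1 at chr14:94376747-94390693 (minus), FABP1 at chr2:88122982-88128116 (minus), ACSL5 at chr10:112374018-112428380 (plus), CPT1A at chr11:68754620-68844410 (minus), PPARA at chr22:46150521-46243756 (plus) and PPARG at chr3:12287368-12434356 (plus).

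Expected counts per library totalled 23730047 to 26658699 in the siRNA experiment and 47842278 to 61417810 in the actinomycin D experiment. STAU1 stood at 144 and 141 CPM (counts scaled by TMM to a common library size) in siCTRL and at 9.70 and 9.17 CPM in siSTAU1. The LS180 4 h libraries numbered 2 and 3 had TMM factors of 0.8644 and 0.8121, below the 0.9738 to 1.098 of the other 16 actinomycin D libraries, and values without this pair are given where they change a call or move a called value by over 1.5 times on the log2 scale. The 11 colon epithelial markers summed to 3800 CPM or more in every library. The 11 hepatocyte markers summed to 0.155 to 0.778 CPM, with ALB at or under 3 counts in every group, so the hepatic type of these genes refers to where they are best known and not to the cells. The 7 adipocyte markers summed to 1.46 to 6.72 CPM. ADIPOQ, LEP and FABP4, which define fat cells, were at or under 3 counts in every group. PLIN4 stood at 1.3 to 6.54 CPM and made up most of the sum, and PLIN1, CIDEC and LPL were over 3 counts in all or some groups. In bulk RNA such as this, fewer cells with a transcript and less of it per cell cannot be told apart.

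The start regions of a few of these genes are shown because the genes share tissue and pathway while their promoters are built differently. RefSeq promoter entries (GRCh38.p14, 250 bases before each annotated start) were found for 6 of the 9 genes, and PCK1, APOA1 and APOB were without an entry. Motifs were searched on both strands of 35116 promoters of that length. The forkhead core in its TGTTTAC form was in 2.98% of them and its TGTTTGC form in 3.23%. The core of HNF4 sites CAAAG was in 42.1% and the hexamer bound by nuclear receptors, AGGTCA, in 12.1%. The GC box GGGCGG was in 42.6%, and the thymine and adenine box near many start sites, TATAAA, in 10.7%. Capitals mark these matches, written as they read on the printed strand, and GC boxes may overlap each other. Each stretch stops where an annotated exon begins.
FABP1 (chr2:88128117-88128312, minus strand, from 250 to 55 bases before the start): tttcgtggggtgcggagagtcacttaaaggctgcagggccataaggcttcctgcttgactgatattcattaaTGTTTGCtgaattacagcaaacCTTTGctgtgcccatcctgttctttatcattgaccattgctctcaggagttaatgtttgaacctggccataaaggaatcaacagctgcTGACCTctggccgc
ACSL5 (chr10:112375018-112375234, plus strand, from 250 to 34 bases before the start): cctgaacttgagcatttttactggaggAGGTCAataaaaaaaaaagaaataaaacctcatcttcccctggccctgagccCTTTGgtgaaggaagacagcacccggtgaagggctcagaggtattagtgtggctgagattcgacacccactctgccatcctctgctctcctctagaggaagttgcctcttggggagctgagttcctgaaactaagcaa
PPARA (chr22:46150276-46150520, plus strand, from 250 to 6 bases before the start): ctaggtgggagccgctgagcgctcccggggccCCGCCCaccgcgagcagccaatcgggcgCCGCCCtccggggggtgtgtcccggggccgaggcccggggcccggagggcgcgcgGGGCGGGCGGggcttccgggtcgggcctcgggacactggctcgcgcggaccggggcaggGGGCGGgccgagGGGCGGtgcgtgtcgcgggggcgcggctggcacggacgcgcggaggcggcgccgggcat
The FABP1 stretch holds a forkhead core of the TGTTTGC form, an HNF4 core and a nuclear receptor hexamer, and TATAAA lies 31 bases before its start, outside the printed bases. The ACSL5 stretch holds a nuclear receptor hexamer and an HNF4 core. The PPARA window holds the GC box 6 times and no other motif searched, and its GC content was 84.4% against a median of 58.0% over all promoters. A downstream start of SERPINA1 has the same forkhead, HNF4 and nuclear receptor letters as FABP1 in its window, which lies within annotated exons and is not shown. TGTTTAC was in none of the windows of these 6 genes. A match is a description of the letters and not of a bound site.

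Levels were compared between genes per length, as TPM, which corrects counts for transcript length and library total, within an experiment. In siCTRL the order was ACSL5 at 83.5 ± 1.04 TPM (SD, n = 2), PPARG at 71.7 ± 2.06, CPT1A at 34.2 ± 1.07, SERPINA1 at 30.4 ± 2.11, PPARA at 14.4 ± 1.68, FABP1 at 13.8 ± 0.969 and PCK1 at 4.49 ± 0.212. PPARA and FABP1 overlapped in this order, and the other neighbours did not. In siSTAU1 PPARG (75.9 ± 1.77 TPM) and ACSL5 (75.7 ± 1.32) overlapped at the top. In LS180 at 0 h of actinomycin D the levels were 29.6 ± 1.72 TPM for ACSL5 (SD, n = 3), 22.6 ± 1.63 for PPARG, 14.6 ± 0.819 for CPT1A, 4.04 ± 0.692 for PPARA, 2.81 ± 0.629 for SERPINA1, 1.65 ± 0.137 for PCK1 and 1.12 ± 0.165 for FABP1, with PPARA and SERPINA1 overlapping. ACSL5 and PPARG were the highest and both apolipoproteins the lowest in each LS180 group. In HCT116 at 0 h ACSL5 had 48.4 ± 5.44 TPM, PPARG 29.2 ± 3.10, CPT1A 9.58 ± 1.04, PPARA 0.530 ± 0.0656 and SERPINA1 0.177 ± 0.0289, with no overlap between these neighbours.

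APOA1 had 1 and 0 counts in siCTRL, 2 and 0 in siSTAU1 and 2 to 14 counts per library in the actinomycin D experiment. APOB had 0 counts in all 22 libraries, which over a group allows at most 0.0173 to 0.0602 CPM by the limit of 3 counts (counting error only). Both are near or under the detection limit at this depth. APOB was not tested in either experiment and APOA1 was tested in the actinomycin D experiment only, so 7 of the 9 genes were tested in the first and 8 in the second.

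**Figure D1:**
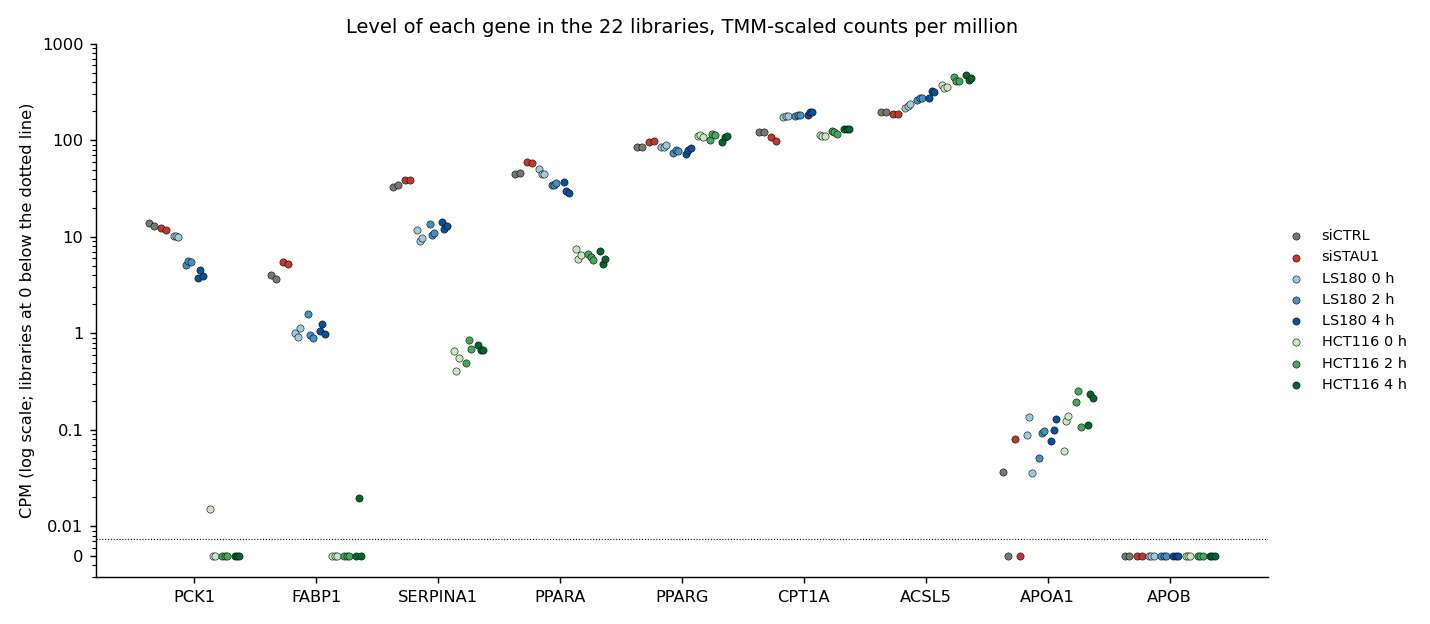
Level of each of the 9 genes in the 22 libraries as TMM-scaled CPM on a log axis, with 1 point per library coloured by group and libraries at 0 below the dotted line. ACSL5 is the highest in each group, APOB is at 0 throughout, and PCK1 and FABP1 are at 0 or 1 count in HCT116. Levels of the siRNA and actinomycin D experiments were scaled separately.

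After STAU1 knockdown, 4 of the 7 tested genes rose (FABP1, PPARA, PPARG and SERPINA1) and CPT1A fell, with an edgeR adjusted p below 0.05. Among all 14073 genes tested, 23.0% were higher and 23.0% lower by the same call, so changes of this kind were common. All 5 changes were under 1.5-fold.

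Both nuclear receptors had higher counts in siSTAU1. PPARA stood at 45.1 and 45.8 CPM in siCTRL and at 60.3 and 58.8 CPM in siSTAU1, without overlap. Its log2 fold change was 0.39 ± 0.0546 (SE, adjusted p = 0.000134). The effective length that RSEM assigned to PPARA, its estimate of the usable length of the transcripts present, moved as well, from 4480 and 3929 bases in siCTRL to 5633 and 5462 bases in siSTAU1. That shift lay at the 98.5th percentile among all genes tested. Per length, PPARA was not higher, with 13.2 to 15.6 TPM in siCTRL and 13 to 13.5 TPM in siSTAU1, and with effective length as an offset the log2 fold change was -0.02 (adjusted p = 0.873). PPARG stood at 85.3 and 85.4 CPM in siCTRL and at 96.8 and 99.0 CPM in siSTAU1. Its log2 fold change of 0.20 ± 0.039 (adjusted p = 0.0015) came with nearly equal mean effective lengths of 1573 and 1591 bases.

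**Figure D2:**
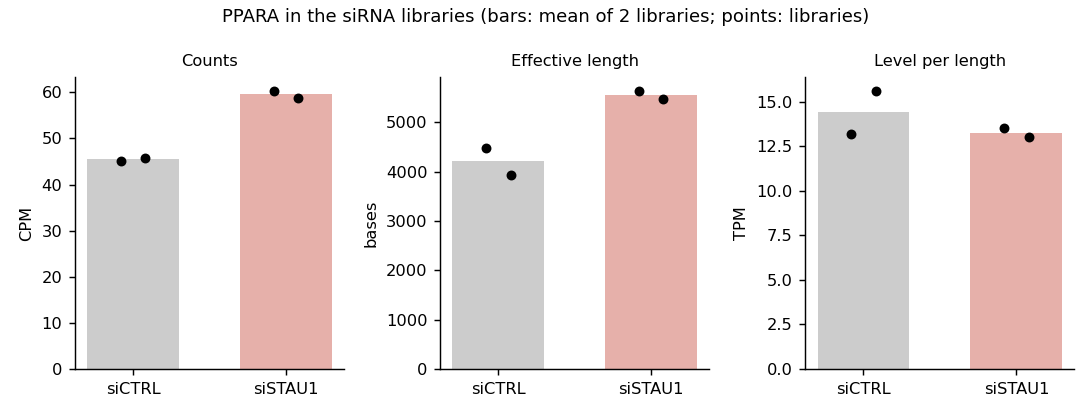
PPARA in the 2 siCTRL and 2 siSTAU1 libraries, as CPM, as effective length in bases and as TPM. Bars are means and points are libraries. CPM and effective length are higher in both siSTAU1 libraries, while the TPM values overlap.

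FABP1 and SERPINA1, the fatty acid carrier and the secreted inhibitor, rose by small amounts. FABP1 went from 4.06 and 3.63 CPM to 5.49 and 5.23 CPM (log2 fold change 0.47 ± 0.147, adjusted p = 0.0199). SERPINA1 went from 33.3 and 34.2 CPM to 38.6 and 38.7 CPM (0.20 ± 0.0611, adjusted p = 0.0207). The groups did not overlap for either gene, but both calls were lost in DESeq2 (adjusted p = 0.139 and 0.0944), with effective length as an offset (0.0888 and 0.105) and when either siCTRL library was left out (0.052 and 0.122 for FABP1, 0.13 and 0.0728 for SERPINA1). They were also lost without siSTAU1 library 1 for FABP1 (0.0724) and without siSTAU1 library 2 for SERPINA1 (0.0639).

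CPT1A, the gate of mitochondrial fatty acid entry, went the other way. It stood at 123 and 123 CPM in siCTRL and at 108 and 98.3 CPM in siSTAU1, a log2 fold change of -0.26 ± 0.0443 (adjusted p = 0.000626). ACSL5 had 196 and 197 CPM against 189 and 190 CPM (-0.05 ± 0.0326, adjusted p = 0.215). PCK1 had 14 and 13 CPM against 12.4 and 11.9 CPM (-0.15 ± 0.0857, adjusted p = 0.166). The libraries of ACSL5 and PCK1 lay apart by group, but neither difference passed the test.

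**Figure D3:**
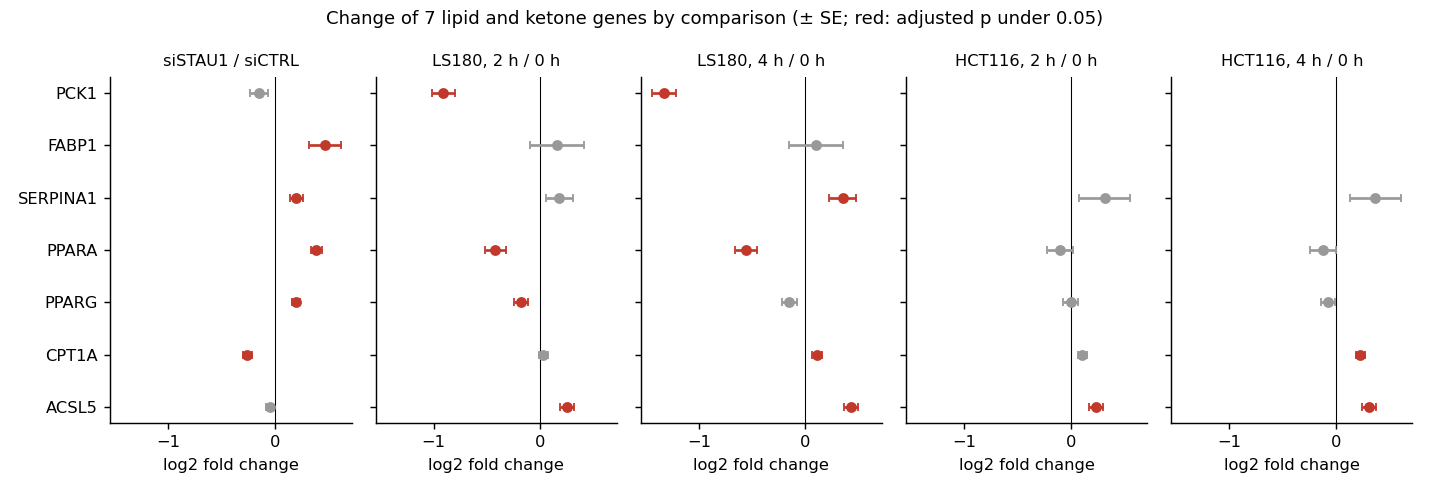
Log2 fold change (± SE) of 7 genes in 5 comparisons, red where the edgeR adjusted p is below 0.05 and grey otherwise, under TMM scaling. In the siRNA panel FABP1, SERPINA1, PPARA and PPARG lie right of 0 and CPT1A left of it. PCK1 and FABP1 are left out of the HCT116 panels, where they had at most 1 count per group.

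Of the wider lipid pathways, chosen with earlier results of these data known and partly holding the genes above, the lists moved in both directions after knockdown, while the median of all genes was 0.00 and 23.0% of all genes rose and 23.0% fell. Of 14 tested genes of fatty acid synthesis 8 fell (median log2 fold change -0.23), among them SCD, the stearoyl-CoA desaturase, from 906 ± 22.8 to 447 ± 17.3 CPM (SD, n = 2; log2 fold change -1.02, adjusted p = 1.33e-08), and FASN, the fatty acid synthase, from 757 ± 23.2 to 531 ± 11.6 CPM (-0.51, adjusted p = 1.38e-06). Of 9 genes of ketone body synthesis and use 4 fell and 1 rose (median -0.10).

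Of 20 genes of mitochondrial fatty acid oxidation 8 rose and 3 fell (median 0.08), with the carnitine carrier SLC25A20 at 0.45 (adjusted p = 0.000642) and the dehydrogenase HADH at 0.23 (adjusted p = 0.000388). Of 11 peroxisomal oxidation genes 3 rose, near the share of all genes. Of 18 genes of fatty acid uptake, binding and activation 7 rose and 3 fell (median 0.20). FABP5, another fatty acid binding protein, rose by 0.33 (adjusted p = 1.63e-05), and the acyl-CoA synthetases ACSL1 and ACSL4 fell by 0.31 and 0.44 (adjusted p = 3.8e-05 and 3.28e-05), unlike ACSL5.

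Of 10 gluconeogenesis genes 5 rose and 1 fell (median 0.12), with FBP1, the fructose bisphosphatase, at 0.53 (adjusted p = 0.000354) and the glucose 6-phosphate transporter SLC37A4 at 0.35 (adjusted p = 0.00137), while PCK1 of the same list did not pass. Of 17 genes of triglyceride synthesis and lipid droplets 6 rose and 7 fell, with DGAT2 at 0.74 (adjusted p = 6.09e-06) and the phosphatidate phosphatase LPIN1 at -0.89 (adjusted p = 1.24e-06). Of 17 known PPAR targets 5 rose and 4 fell (median 0.00), near the shares of all genes. Of 20 regulators 6 rose and 10 fell (median -0.11): the corepressor NCOR1 by -0.69 (adjusted p = 3.61e-07), HNF4A from 173 ± 4.65 to 125 ± 4.99 CPM (-0.47, adjusted p = 3.49e-06) and FOXA3 by 0.42 (adjusted p = 0.000318). Of 7 lipoprotein genes 1 fell, the disulfide isomerase PDIA3 (-0.22, adjusted p = 0.000424), and of 2 tested secreted liver proteins SERPINA1 rose.

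Markers of other cell types differed between the same libraries. The 6 fibroblast markers summed to 4.72 to 5.13 CPM in siCTRL and to 15.3 to 16.8 CPM in siSTAU1, with LUM at 1.25 to 1.74 and at 9.18 to 10.8 CPM and COL3A1 from 2.51 ± 0.0529 to 5.30 ± 0.442 CPM, while COL1A2 stayed at or under 3 counts. The 7 adipocyte markers summed to 1.46 to 1.81 and to 3.34 to 4.89 CPM, with PLIN4 from 1.33 ± 0.0502 to 3.55 ± 0.815 CPM. The 6 immune markers summed to 243 to 251 and to 110 to 111 CPM, with PTPRC and CD3E at or under 3 counts in both groups. That lower sum came from LYZ, the lysozyme gene, at 222 to 232 and 90.2 to 91.9 CPM, while CD14 was higher, at 2.55 to 3.06 and 3.61 to 4.38 CPM, and CD68 stood at 15.8 to 17.9 and 14.8 to 15.6 CPM. Their part in the changes of the lipid genes was not tested. The 11 colon epithelial markers summed to 12200 to 12600 and to 11900 to 12300 CPM, but 7 of them rose and 3 fell. The sum rests mainly on the keratins KRT8 and KRT18, while KRT19 rose (757 to 782 against 989 to 1060 CPM) and CDH1, the epithelial cadherin, fell (450 to 458 against 241 to 247 CPM).

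Actinomycin D stops transcription, and each CPM value is then a share of the RNA that remains, so a change is relative to the other transcripts and not an absolute loss or gain. Under TMM scaling the median log2 change of all genes at 4 h was 0 in LS180 and 0.025 in HCT116. Scaling to 79 ribosomal protein genes, whose mRNAs are long-lived, moved these medians to -0.541 and -0.331, and to -0.254 and -0.192 at 2 h. Both scalings are given below, since the direction of several genes turns on the choice.

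In LS180, 3 of the 8 tested genes were lower at 2 h (PCK1, PPARA and PPARG) and 1 was higher (ACSL5), against 23.9% and 13.5% of all 17256 genes. The balance over all genes at 2 h turned with other size factors. By RLE scaling 3364 of all genes were lower and 4863 higher, and by DESeq2 3284 and 4927. Each called 2 of the 8 genes lower and 2 higher. At 4 h, 2 of the 8 were lower by edgeR under TMM (PCK1 and PPARA) and 3 higher (ACSL5, CPT1A and SERPINA1), against 31.1% and 26.6%. Scaled to ribosomal protein genes, 4 were lower at 4 h, PCK1, PPARA, PPARG and CPT1A, and 0 were higher, also at an unadjusted p below 0.05. Under that scaling 10712 of all 17256 genes were lower at 4 h and 125 higher. DESeq2 called 3 of the 8 genes higher and 2 lower at 4 h, against 5964 and 4525 of all genes.

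PCK1 fell the most of these genes in LS180 under both scalings. It stood at 10.3, 10.3 and 10.1 CPM at 0 h, at 5.18, 5.60 and 5.56 CPM at 2 h and at 3.75, 4.54 and 3.92 CPM at 4 h. The times did not overlap, and the mean was 53.1% ± 2.23 of the 0 h level at 2 h and 39.7% ± 4.03 at 4 h (SD, n = 3). The log2 changes were -0.91 ± 0.109 (SE, adjusted p = 9.31e-06) and -1.33 ± 0.113 (adjusted p = 1e-07). The 4 h change lay at the 12.7th percentile of the changes of all genes tested. The mean effective length of PCK1 moved as well, from 2490 bases at 0 h to 2050 bases at 4 h, at the 6.8th percentile of such shifts. Scaled to ribosomal protein genes, PCK1 was at 45.1% ± 3.44 and 27.0% ± 3.47. Set against ACSL5 in the same library, which needs no scaling, PCK1 counts were 4.51% ± 0.268 of ACSL5 counts at 0 h, 2.01% ± 0.0193 at 2 h and 1.33% ± 0.094 at 4 h. ACSL5 itself was higher at 4 h under TMM (log2 change 0.43), so the ratio holds the changes of both genes.

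PPARA and PPARG were lower to a smaller extent. PPARA stood at 50.4, 44.8 and 45.1 CPM at 0 h, 34.2, 34.6 and 35.9 CPM at 2 h and 36.8, 30.1 and 28.5 CPM at 4 h. All treated libraries lay below all 0 h libraries, with log2 changes of -0.42 ± 0.101 (adjusted p = 0.00302) and -0.56 ± 0.102 (adjusted p = 0.000121). The 4 h change was -0.21 with effective length as an offset (adjusted p = 0.082), where the mean effective length was 4675 bases at 0 h and 3652 bases at 4 h, and -0.21 without the LS180 4 h libraries 2 and 3 (adjusted p = 0.163). Scaled to ribosomal protein genes it was -1.08 (adjusted p = 6.89e-06).

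PPARG stood at 85.4, 85.5 and 89.8 CPM at 0 h, 73.9, 79.0 and 77.4 CPM at 2 h and 71.8, 80.3 and 83.0 CPM at 4 h. All treated libraries lay below the 0 h libraries, by -0.18 ± 0.0671 at 2 h (adjusted p = 0.0435) and -0.15 ± 0.0672 at 4 h (adjusted p = 0.0665). The 2 h call was lost with RLE scaling, in DESeq2, with either other filter on low counts, with effective length as an offset and without the LS180 4 h libraries 2 and 3 (-0.05, adjusted p = 0.576). It was also lost when any 1 of the 0 h or 2 h libraries was left out (adjusted p from 0.0698 to 0.492), while the 4 h change passed without LS180 4 h library 3 (-0.19, adjusted p = 0.0371), without the HCT116 libraries numbered 1 (-0.15, adjusted p = 0.0217) and by library size alone (-0.36, adjusted p = 5.36e-05). At 4 h the change was -0.71 when scaled to ribosomal protein genes (adjusted p = 1.36e-06).

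The fatty acid enzymes lay at or above the average transcript. ACSL5 stood at 217, 227 and 239 CPM at 0 h, 261, 278 and 275 CPM at 2 h and 275, 324 and 321 CPM at 4 h. The 0 h libraries lay below all others, with log2 changes of 0.25 ± 0.0683 (adjusted p = 0.00745) and 0.43 ± 0.0684 (adjusted p = 2.75e-05), but when scaled to ribosomal protein genes they were 0.02 (adjusted p = 0.905) and -0.13 (adjusted p = 0.101). The 2 h change was 0.38 without the LS180 4 h libraries 2 and 3 (adjusted p = 3.27e-05). Exons of ACSL5 share 224 and 144 bases with AL157786.1 and ZDHHC6 on the opposite strand, and since the strand setting of the counting was not among the sources used here, reads from those bases may not be told apart. CPT1A stood at 176, 181 and 179 CPM at 0 h, 181, 182 and 183 CPM at 2 h and 185, 197 and 195 CPM at 4 h. The 2 h libraries lay narrowly above those of 0 h, and the change did not pass (0.03 ± 0.0441, adjusted p = 0.665). At 4 h CPT1A was higher under TMM (0.11 ± 0.0441, adjusted p = 0.0437), at -0.09 by library size alone (adjusted p = 0.201) lower when scaled to ribosomal protein genes (-0.44, adjusted p = 2.97e-05) and at 0.18 without the LS180 4 h libraries 2 and 3 (adjusted p = 0.0173). The 4 h call was lost without 0 h library 1, 2 or 3 (adjusted p = 0.126, 0.063 and 0.0811), without 4 h library 2 or 3 (0.119 and 0.0926), with effective length as an offset (0.0909) and with only the compared groups in the fit (0.12). At 2 h CPT1A was at 0.15 with RLE scaling (adjusted p = 0.0115), in DESeq2 (0.000397), with a minimum of 1 CPM (0.00708) and without LS180 2 h library 2 (0.0269), at 0.16 without the LS180 4 h libraries 2 and 3 (adjusted p = 0.00516), and at -0.21 when scaled to ribosomal protein genes (adjusted p = 0.032).

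SERPINA1 stood at 11.9, 9.18 and 9.78 CPM at 0 h, 13.6, 10.4 and 11 CPM at 2 h and 14.2, 12 and 13 CPM at 4 h. The 4 h libraries lay above those of 0 h (0.35 ± 0.129, adjusted p = 0.0288), while 2 h and 0 h overlapped (0.18 ± 0.129, adjusted p = 0.298), and the 4 h change was -0.19 when scaled to ribosomal protein genes (adjusted p = 0.331) and 0.60 without the LS180 4 h libraries 2 and 3 (adjusted p = 0.00927). The 4 h call was lost without 0 h library 2 or 3 (adjusted p = 0.131 and 0.0948), without 4 h library 3 (0.0558), with effective length as an offset (0.111) and by library size alone (0.468), and the 2 h change passed without LS180 2 h library 2 (0.38, adjusted p = 0.0388). FABP1 stood at 1.00, 0.913 and 1.15 CPM at 0 h, 1.58, 0.953 and 0.896 CPM at 2 h and 1.05, 1.25 and 0.980 CPM at 4 h. Its times overlapped, with log2 changes of 0.16 ± 0.252 and 0.10 ± 0.256 (adjusted p = 0.662 and 0.775), and at 162 to 199 counts per group the standard errors leave room for changes in either direction.

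In HCT116 ACSL5 was higher at 2 h, which makes 1 of 6 genes against 13.8% of all genes, and ACSL5 and CPT1A were higher at 4 h, 2 of 6 against 26.2%. By edgeR and by DESeq2 0 of 6 were lower at either time, also at an unadjusted edgeR p below 0.05, against 17.1% and 23.7% of all genes. PCK1 and FABP1, with at most 1 count per group in HCT116, entered the fit only through their level in LS180 and are not counted.

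ACSL5 stood at 379, 352 and 355 CPM at 0 h, 456, 409 and 415 CPM at 2 h and 479, 426 and 440 CPM at 4 h in HCT116. The treated libraries lay above the 0 h libraries, by 0.24 ± 0.0682 (adjusted p = 0.0138) and 0.31 ± 0.0682 (adjusted p = 0.000946), and the 4 h change was -0.08 when scaled to ribosomal protein genes (adjusted p = 0.356). The 2 h call was lost without HCT116 0 h library 2 (adjusted p = 0.0538), without HCT116 2 h library 1 (0.0688), by library size alone (0.0903) and when scaled to ribosomal protein genes (0.01, adjusted p = 0.982). CPT1A stood at 115, 111 and 110 CPM at 0 h, 126, 121 and 117 CPM at 2 h and 130, 132 and 133 CPM at 4 h. Its 2 h change was 0.11 ± 0.0443 (adjusted p = 0.0619) and its 4 h change 0.23 ± 0.0443 (adjusted p = 0.00029), while the latter was -0.16 when scaled to ribosomal protein genes (adjusted p = 0.0749). By library size alone the 4 h call of CPT1A was also lost (0.11, adjusted p = 0.159). The 2 h change passed with RLE scaling (0.13, adjusted p = 0.0346) and in DESeq2 (0.13, adjusted p = 0.00395).

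The nuclear receptors overlapped between times in HCT116 under TMM. PPARG stood at 112, 113 and 108 CPM at 0 h, 102, 118 and 114 CPM at 2 h and 97.0, 109 and 112 CPM at 4 h (4 h change -0.07 ± 0.0667, adjusted p = 0.437). PPARA stood at 7.53, 5.95 and 6.47 CPM at 0 h, 6.61, 6.25 and 5.84 CPM at 2 h and 7.17, 5.20 and 5.93 CPM at 4 h (4 h change -0.12 ± 0.119, adjusted p = 0.428), and its 2 h change passed with effective length as an offset (-0.40, adjusted p = 0.014). When scaled to ribosomal protein genes the 4 h changes were -0.46 (adjusted p = 0.000285) and -0.51 (adjusted p = 0.0187), so both calls rest on the scaling. SERPINA1 stood at 0.410 to 0.659 CPM at 0 h, 0.496 to 0.862 CPM at 2 h and 0.672 to 0.767 CPM at 4 h (4 h change 0.37 ± 0.238, adjusted p = 0.213).

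The difference between the lines in these changes was tested itself, as the HCT116 change minus the LS180 change. PCK1 and FABP1 could not be compared, as they had at most 1 count per group in HCT116. By edgeR 0 of the other 6 tested genes passed at 2 h or at 4 h, where 5.24% and 12.3% of all genes were higher and 0.394% and 1.33% lower. The direction over all genes at 4 h was not stable. In the main fit 2129 were higher and 230 lower, but 1919 and 2536 without LS180 4 h library 1. With a minimum of 1 CPM they were 1253 and 1757. At an unadjusted p below 0.05 the counts of the 6 genes were 0 and 1, and DESeq2 called 0 of them. The gene at an unadjusted p below 0.05 was PPARA at 4 h (0.43 ± 0.157, adjusted p = 0.0813), whose difference was 0.06 without the LS180 4 h libraries 2 and 3 (adjusted p = 0.931), but passed without LS180 4 h library 1 (0.39, adjusted p = 0.0403) or HCT116 0 h library 1 (0.54, adjusted p = 0.0312). The 4 h differences of CPT1A, PPARG and ACSL5 were 0.12 ± 0.0625, 0.08 ± 0.0946 and -0.12 ± 0.0965, so differences of about that size in either direction were not detectable here. That of ACSL5 passed with a minimum of 1 CPM (-0.30, adjusted p = 0.0298) and without LS180 4 h library 1 (-0.35, adjusted p = 0.00368) or HCT116 4 h library 1 (-0.32, adjusted p = 0.0394).

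At 0 h the lines differed in the 5 genes of this set that could be measured in both and passed the test. PCK1 and FABP1, with at most 1 count in HCT116, were tested only through their level in LS180 and are given as ratios. SERPINA1, PPARA and CPT1A were lower in HCT116, and ACSL5 and PPARG were higher. Of all genes 42.6% were lower and 33.7% higher in HCT116, with a median log2 difference of -0.103, and the 5 directions were the same under each scaling tried.

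PCK1 had 1674 counts over the 3 LS180 libraries at 0 h and 1 count over the 3 of HCT116, a ratio of 1780 after scaling (exact binomial 95% interval 319 to 70400, counting error only). At 2 and 4 h it was at least 304-fold and at least 230-fold higher in LS180, taking 3 counts in the HCT116 group as the floor. FABP1 had 167 counts in LS180 and 0 in HCT116 at 0 h, at least 59.2-fold higher, and was at least 64.0-fold higher at 2 h. FABP1 had 1 count in HCT116 at 4 h, against 162 in LS180 (ratio 185, 32.8 to 7370).

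SERPINA1 had 11.9, 9.18 and 9.78 CPM in LS180 and 0.659, 0.410 and 0.552 CPM in HCT116 (log2 difference -4.23 ± 0.178, adjusted p = 9.79e-14). PPARA, at 44.8 to 50.4 CPM in LS180 and 5.95 to 7.53 CPM in HCT116, differed by -2.81 ± 0.113 (adjusted p = 4.96e-14). CPT1A, at 176 to 181 and 110 to 115 CPM, differed by -0.67 ± 0.0444 (adjusted p = 8.73e-11). In the other direction ACSL5, at 217 to 239 and 352 to 379 CPM, differed by 0.67 ± 0.0685 (adjusted p = 5.1e-08), and PPARG, at 85.4 to 89.8 and 108 to 113 CPM, by 0.35 ± 0.0669 (adjusted p = 9.53e-05). The libraries of the lines did not overlap for any of these 5, which were taken as genes that passed the test. The share of all genes without overlap was not computed. APOA1, at 0.0359 to 0.136 and 0.0599 to 0.138 CPM, overlapped (0.28 ± 0.527, adjusted p = 0.646).

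Of 22 tested regulators of such genes 14 were lower and 5 higher in HCT116, PPARG among the higher, against 42.6% and 33.7% of all genes. HNF4A, a nuclear receptor of liver and gut, stood at 112 ± 5.80 CPM in LS180 and 3.01 ± 0.321 CPM in HCT116 (SD, n = 3; log2 difference -5.21, adjusted p = 4.93e-19). The coactivator PPARGC1A had 6.72 ± 0.649 CPM in LS180, at least 389-fold higher than in HCT116, where it had 0 counts. Of the 11 colon epithelial markers 7 were lower in HCT116, with CDX1 at 0 counts, and 4 were higher, among them KRT8 at 1580 to 1750 against 1100 to 1320 CPM, KRT18 at 1310 to 1380 against 1010 to 1130 CPM and KRT19 at 534 to 621 against 269 to 309 CPM.

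The pathway lists held more lower than higher genes in HCT116, except fatty acid synthesis with 7 higher and 6 lower of 15, as did all genes, with 42.6% lower and 33.7% higher. With ribosomal protein scaling 5301 of the 17256 genes were lower and 7426 higher, and each of these lists but fatty acid synthesis still held more lower than higher. Lower and higher were 15 and 4 of 20 for mitochondrial oxidation (median log2 difference -0.75), 14 and 3 of 19 for uptake and activation (-1.13), 8 and 1 of 11 for peroxisomal oxidation (-0.73), 7 and 1 of 10 for gluconeogenesis (-1.53) and 7 and 1 of 10 for lipoprotein genes (-1.21). They were 14 and 5 of 22 for regulators (-0.41), 10 and 7 of 20 for PPAR targets (-0.38), near the shares of all genes, 6 and 2 of 10 for ketone genes (-0.38) and 12 and 5 of 18 for triglyceride and droplet genes (-0.76). The gluconeogenesis list holds PCK1 and PPARGC1A, the regulators PPARGC1A, and the uptake and PPAR target lists FABP1. These genes had at most 1 count in HCT116 at 0 h and were tested through their level in LS180. ACAA2, the last enzyme of the oxidation spiral, stood at 222 ± 8.74 CPM in LS180 and 8.31 ± 0.692 CPM in HCT116, and the long-chain synthetase ACSL1 at 151 ± 3.39 and 23.1 ± 1.36 CPM. The mitochondrial counterpart of PCK1, PCK2, stood at 84.8 ± 1.22 and 21.5 ± 3.51 CPM, and pyruvate carboxylase, PC, at 37.6 ± 3.71 and 8.75 ± 0.872 CPM. LPIN1 stood at 80.0 ± 1.03 and 17 ± 1.6 CPM and the desaturase FADS2 at 236 ± 12.2 and 13.7 ± 0.538 CPM.

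During the block of transcription, enzymes and regulators of these pathways parted under TMM scaling. At 4 h in LS180, 17 of 20 mitochondrial oxidation genes were higher (median log2 change 0.45, all genes 0), as were 9 of 10 ketone genes, with ACADM at 0.70 (adjusted p = 5.01e-08) and OXCT1 at 0.67 (adjusted p = 1.88e-07). In HCT116 16 of the 20 oxidation genes were higher and 1 lower, and 6 of the 10 ketone genes were higher and 1 lower, with ACADM at 0.55 and OXCT1 at 0.59 (adjusted p = 2.31e-06 and 1.77e-06). Scaled to ribosomal protein genes, 0 of these oxidation or ketone genes were higher in either line and 6 and 4 were lower in LS180 (2 and 2 in HCT116), and at an unadjusted p below 0.05 1 oxidation gene was higher, in HCT116. Under that scaling 10712 of all 17256 genes were lower and 125 higher in LS180, and 7231 and 116 in HCT116. ACADM was then at 0.14 in LS180 (adjusted p = 0.0954).

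Regulators were called lower more often than higher under both scalings. Of 22, 15 were lower and 1 higher in LS180 at 4 h (median -0.64), and 10 were lower and 0 higher in HCT116 (median -0.15), where the other 12 did not pass. These 12 include PPARGC1A, which had 0 counts in HCT116 at 0 h and could not be seen to fall there. Scaled to ribosomal protein genes 19 and 18 of the 22 were lower, against 10712 and 7231 of all 17256 genes. FOXA1 went from 38.6 ± 1.78 to 3.59 ± 0.828 CPM in LS180 (-3.42, adjusted p = 1e-12), CEBPB from 19 ± 0.6 to 2.61 ± 0.122 CPM (-2.86, adjusted p = 1.22e-14) and PPARGC1A, the coactivator that drives PCK1 in liver, from 6.72 ± 0.649 to 2.35 ± 0.243 CPM (-1.52, adjusted p = 2.65e-07). CEBPB also fell in HCT116, by 2.30 on the log2 scale (adjusted p = 1.9e-13). PPARA, at -0.56 in LS180, lay near the median of its list, and PCK1, at -1.33, lay below the medians of the enzyme lists.

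Of all genes 26.6% were higher and 31.1% lower in LS180 at 4 h, and 26.2% and 23.7% in HCT116. Higher and lower in LS180 were 4 and 2 of 10 gluconeogenesis genes, not far from those shares, 11 and 2 of 20 PPAR targets, 10 and 1 of 19 uptake and activation genes, 7 and 1 of 11 peroxisomal genes, 9 and 2 of 15 fatty acid synthesis genes and 3 and 6 of 18 triglyceride and droplet genes, with 4 of 10 lipoprotein genes and 2 of 5 secreted liver proteins higher. In HCT116 the counts were 9 and 3 for PPAR targets, 6 and 1 for peroxisomal genes, 8 and 1 for fatty acid synthesis and 5 and 3 for triglyceride and droplet genes, with 7 uptake and activation genes, 4 gluconeogenesis genes and 4 lipoprotein genes higher. PCK1, FABP1 and PPARGC1A, with at most 1 count in HCT116 at 0 h, were kept in their lists. Coats and regulators of lipid droplets were among the genes that fell in LS180, with PLIN2 at -0.98 (adjusted p = 1.21e-09) and HILPDA at -2.97 (adjusted p = 3.48e-15), and HILPDA was at -2.13 in HCT116 (adjusted p = 3.47e-13). Scaled to ribosomal protein genes 16 of the 18 triglyceride and droplet genes were lower in LS180, against 10712 of all 17256 genes.

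**Figure D4:**
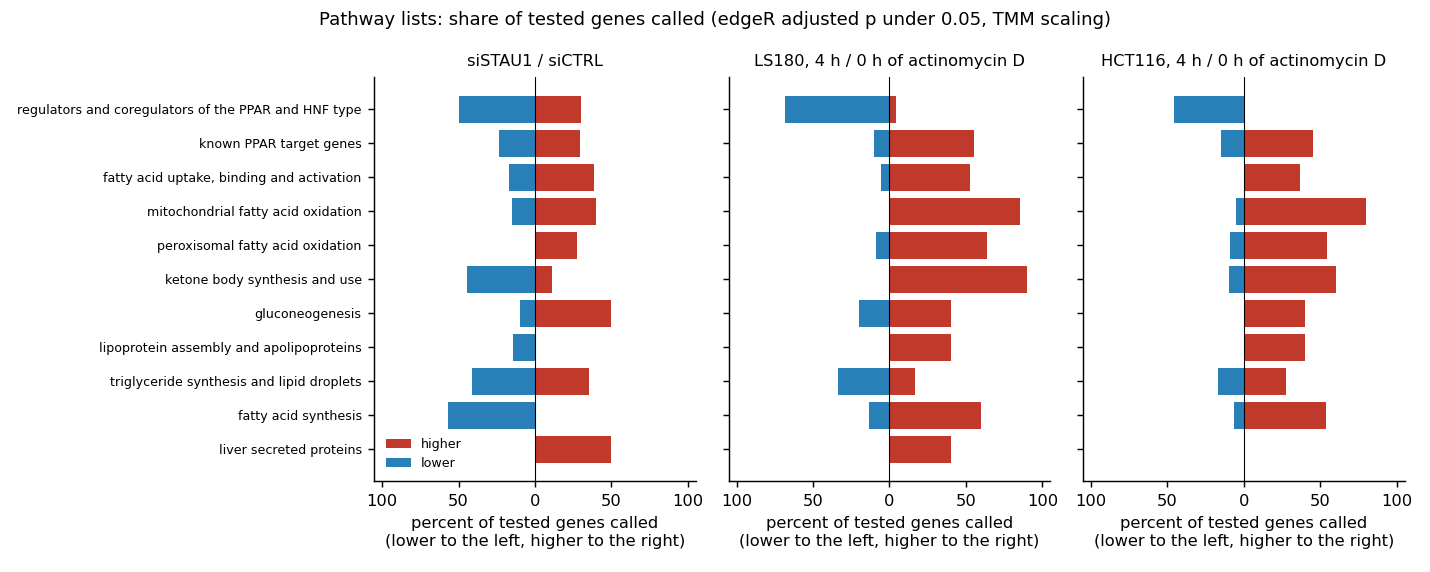
Percent of the tested genes of 11 pathway lists called lower (blue, to the left) or higher (red, to the right) by edgeR under TMM scaling, for siSTAU1 against siCTRL and for 4 h against 0 h of actinomycin D in each line. Mitochondrial oxidation and ketone genes are mostly on the higher side in the actinomycin D panels, where the side depends on the scaling, and regulators are on the lower side.

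Transcript features that bear on decay were read from the GRCh38 annotation, for the longest coding transcript marked there as principal. That transcript has 9995 bases for PPARA, 4341 for PCK1 and 3532 for SERPINA1. The mean effective lengths in LS180 at 0 h were 4675, 2490 and 1478 bases, so the transcripts measured may lack part of the regions described. ATTTA, the core of AU-rich decay elements, occurs 12 times in the 3′ UTR of PPARA, which at 8375 bases lies at the 98.3rd percentile of tested coding genes. It occurs 6 times in that of CPT1A (2755 bases), 3 times each in PCK1 (2308 bases) and PPARG (211 bases), 2 times in ACSL5 (1021 bases) and 0 times in SERPINA1 (1702 bases) and FABP1 (72 bases). PCK1 and PPARA were lower in LS180 at 4 h under TMM, where PPARA did not pass with effective length as an offset (edgeR adjusted p = 0.082). CPT1A was higher under TMM and lower when scaled to ribosomal protein genes. Whether ATTTA bears on these changes was not tested. Over all tested coding genes the median change in LS180 at 4 h was 0.07 for 4416 genes without ATTTA and 0 for 2257 with 1. It was -0.05 both for 1492 genes with 2 and for 5561 genes with 3 or more.

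Among 10757 genes tested in both experiments, those whose log2 CPM followed each gene most closely over the 22 libraries were found by the root mean square difference after centring within each experiment. For PCK1 they were ZNF841, SSTR1 and ZNF69 (0.21, 0.211 and 0.212), for PPARA OSBPL5, SEMA3F and TESK2 (0.101, 0.125 and 0.16) and for SERPINA1 CES3, RAB15 and LRP4 (0.186, 0.205 and 0.215). The flatter genes had closer neighbours, with CNPPD1 at 0.053 for CPT1A, RHOQ at 0.064 for ACSL5 and CEP55 at 0.067 for PPARG.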

How the data were processed

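All 22 deposited gene tables were used (4 of the siRNA and 18 of the actinomycin D experiment), in 8 groups read from the labels. Per the labels' protocols RNA was purified with an RNeasy Plus Mini column and made into stranded libraries from mRNA or total RNA. Per the submitters' processing notes the authors used cutadapt, STAR 2.7 and RSEM 1.3.1, with builds hg38 (siRNA) and hg19 (actinomycin D). Annotation release, strand setting and read filters were not given in the sources used here. The tables the authors deposited hold expected counts, which divide a read among the genes it matches, TPM, used here to set genes beside each other, and effective length in bases, used as an offset in an alternative.

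After rounding, counts entered edgeR 4.0.16 in R 4.3.3 (TMM, filterByExpr, glmQLFit, glmQLFTest, two-sided) on 14073 genes (2 residual degrees of freedom) and 17256 genes (12 residual degrees of freedom), with Benjamini-Hochberg adjustment over all genes of a comparison and a threshold of 0.05. Levels of the 2 experiments were not compared. The 2 h and 4 h comparisons share their 0 h libraries. Alternative fits used DESeq2 1.42.0, RLE factors, library size without TMM, ribosomal protein genes for scaling, a length offset, a replicate block, no low-count filter or one of 1 CPM per library, only the compared groups, or fewer libraries.

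The 9 genes, the 11 pathway lists and the 6 marker lists were chosen with earlier results of these data known. All 9 genes are named in every comparison, with up to 3 other genes per list and comparison by smallest adjusted p among called genes averaging at least 1 CPM, and STAU1. LUM, COL3A1 and PLIN4 are marker list genes. The values of a gene repeated from another comparison are given beside results they bear on. Some genes the rule picks and a motif are not reported here. The fits were tested on simulated data. Other steps used Python 3.11.15, pandas 2.3.3, numpy 2.4.6, scipy 1.17.1 and matplotlib 3.10.9. Promoter sequences came from RefSeq (GRCh38.p14).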

Additional observations from a re-analysis of the deposited data

Results flagged for a closer look

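The 2 lines differed in the change of a pair of lipid droplet genes after actinomycin D, by a test of the difference itself (edgeR, HCT116 change minus LS180 change). HILPDA, a droplet protein that restrains lipolysis, differed by 0.95 ± 0.113 at 2 h (SE, adjusted p = 2.94e-05) and by 0.85 ± 0.121 at 4 h (adjusted p = 7.5e-05). It went from 20.9 ± 0.849 to 2.66 ± 0.0923 CPM in LS180 at 4 h (SD, n = 3) and from 16 ± 0.568 to 3.64 ± 0.240 CPM in HCT116. PLIN2, a coat protein of lipid droplets, differed by 0.41 ± 0.0991 at 2 h (adjusted p = 0.0161) and by 0.74 ± 0.1 at 4 h (adjusted p = 4.63e-05). It went from 35.9 ± 1.03 to 18.3 ± 0.528 CPM in LS180 at 4 h and from 64.0 ± 3.2 to 54.2 ± 2.2 CPM in HCT116. The difference of PLIN2 at 2 h did not pass under several alternatives. Neither gene is among the 9 described.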

How the results depend on the processing

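Leaving out each library in turn gave 2 to 3 of the 9 genes higher and 1 lower after STAU1 knockdown, 1 to 3 higher and 2 lower in LS180 at 2 h, 1 to 3 higher and 2 to 3 lower in LS180 at 4 h, 0 to 1 higher in HCT116 at 2 h, and 0 to 1 in each direction for the line difference at 4 h. After knockdown DESeq2 called 2 higher and the length offset 1, where PPARA was at -0.02. Of all 14073 genes they called 2326 and 2189 higher, against 3242 in the main fit. At 2 h in LS180 4863 of all 17256 genes were higher with RLE and 4927 with DESeq2, against 2329 in the main fit. With at least 1 CPM 4943 of 13663 were higher there. In LS180 at 2 h, 2 were higher with at least 1 CPM, DESeq2, no filter, RLE or without the LS180 4 h libraries 2 and 3. Without that pair 1 was lower at 4 h. With the length offset 1 was higher and 1 lower in LS180 at 4 h and 1 lower in HCT116 at 2 h. Over all 17256 genes that offset gave 4088 higher and 4907 lower in LS180 at 4 h, and 2464 lower in HCT116 at 2 h. Without TMM 1 was higher in LS180 at 4 h, with CPT1A at -0.09, 0 in HCT116 at 2 h, and 1 higher and 1 lower in HCT116 at 4 h. Of all 17256 genes 1893 were then higher in LS180 at 4 h and 685 in HCT116 at 2 h. In HCT116 at 4 h 2274 of them were higher and 4409 lower. With ribosomal protein scaling 0 were higher in either line at 2 or 4 h, 4 were lower in LS180 and 2 in HCT116 at 4 h, with CPT1A at -0.21 in LS180 at 2 h, and ACSL5, CPT1A and SERPINA1 at -0.13, -0.44 and -0.19 in LS180 and ACSL5 and CPT1A at -0.08 and -0.16 in HCT116 at 4 h. Under that scaling 10712 and 7231 of all 17256 genes were lower at 4 h in LS180 and HCT116, and 125 and 116 higher. DESeq2 and RLE called 2 of the 9 genes higher in HCT116 at 2 h, against 3048 and 2794 of all 17256 genes. With a minimum of 1 CPM the line difference at 4 h had 1 gene lower, against 1757 of all 13663 genes. The cause of these shifts was not tested. No direction is counted as turned where neither value passed the test. Of the single values of the 9 genes, 584 gained, lost or turned no call under alternatives other than leaving out 1 library. Some of these changed sign where neither value passed. Of the rest, 21 lost and 17 gained a call, and 8 turned. The values of PCK1 and FABP1 in HCT116, with at most 1 count per group, are included. Over all genes, calls after knockdown numbered 6482, and 4073 or 4321 without siCTRL library 1 or 2. For the line difference at 4 h there were 2359, and 990 without the LS180 4 h libraries 2 and 3 and 4455 without LS180 4 h library 1. At 2 h there were 973, and 459, 453 and 500 without HCT116 2 h library 2 or 3 or LS180 2 h library 2, and 635, 376 and 470 with the length offset, ribosomal protein scaling and no TMM. Same-numbered libraries did not deviate together in the siRNA groups (correlation -0.056) or in LS180 (-0.092 to 0.075). In HCT116 all 9 same-numbered pairs were positive (0.085 to 0.325), but against 0 h the lowest were 0.086 at 2 h and 0.085 at 4 h, under the 0.1 asked of every pair, so the numbers were not taken as pairing. With the replicate number as a block the line difference at 4 h had 1 gene higher, PPARA at 0.44. In LS180 at 4 h it had 2 higher and 3 lower, as CPT1A no longer passed (0.11, adjusted p = 0.0506) and PPARG did (-0.15, adjusted p = 0.0232). The block changed no other call of the 9 genes. The low counts of PCK1, FABP1 and APOA1 limit what could be seen in HCT116.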
